A study of Homo sapiens with 8 samples.

Results

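The 7 genes OLIG3, ST18, HAND1, TLX3, CSRNP3, ZNF385D and EVX1 encode factors of developmental lineages, and they were followed through loss of the chromatin remodelling subunits SMARCB1 and SMARCA4. They are 7 of the 19541 genes in the authors' deposited table. They were picked from that table because each was gained or lost in a null line and differed between the SMARCB1 and SMARCA4 nulls, so their values in the 2 single nulls are a description, with no test. The name "switched in 1 null" fitted only some of them: HAND1 was higher in all 3 null groups, and OLIG3 and ST18 were lower in all 3. TLX3 and CSRNP3 were low in both single nulls and lowest in the SMARCA4 null, and EVX1 and ZNF385D stood on opposite sides of wildtype in the 2 single nulls.

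RNA was sequenced from HAP1, an adherent near-haploid human line derived from a chronic myeloid leukaemia line, in 4 groups of 2 samples. Wildtype was 1 line sampled at passages 9 and 12. The SMARCB1 null and the SMARCA4 null were each sampled at passage 12 after editing with 2 different guides, 1 per sample. Both samples of the SMARCB1-SMARCA4 double null were made with guide 1 for SMARCB1 and guide 2 for SMARCA4. They were taken at passages 15 and 18, so the later passages cannot be told apart from the genotype. They may come from 1 line, but whether they do is not known here. Separate cultures are not stated, and p-values measure only the spread between these samples.

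SMARCB1 and SMARCA4 belong to the SWI/SNF (BAF) complexes, which use ATP to move nucleosomes and keep enhancers and promoters open. SMARCA4 is an ATPase of these complexes and SMARCB1 a core subunit. OLIG3 and HAND1 are basic helix-loop-helix (bHLH) factors, which bind DNA as dimers with partners such as TCF12 and are held back by ID proteins. TLX3 and EVX1 are homeodomain factors, ST18 is a zinc finger factor of the MYT1 family, CSRNP3 is a cysteine- and serine-rich nuclear protein, and ZNF385D is a zinc finger protein.

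The deposited tables hold comparisons of each null with wildtype, and reads per library were recovered from them for 5 of the 7 genes. The libraries held 99.7 to 151 M reads. Levels are given as reads per 100 M, not corrected for gene length, and the 2 libraries of a group are named deeper and shallower because they cannot be tied to a passage or guide, with the deeper given first. For ST18 and CSRNP3 only a group level with the range that the deposited total allows could be set. As a check of the labels, the ratio of SMARCB1 to its wildtype level was 0.109 in its own null and 0.182 in the double null, and that of SMARCA4 was 0.0918 and 0.152, in the authors' deposited table. The deeper double-null library stood apart. Of 3983 genes with at least 20 recovered reads, 634 were more than 4 times higher there than in every other library, against 56 in the deeper SMARCB1-null library and 0 to 8 in the others. Of the 18 neuronal markers, the 3 with recovered reads summed to 6785 reads per 100 M in that library and to 14.4 in the other double-null library, with 5.00 to 26.0 in the remaining 6. These 3 do not stand for the list. By group level all 18 summed to 11705 in wildtype and to 3230, 12457 and 149570 in the nulls of SMARCB1, SMARCA4 and both. SYT1 and TUBB3 gave 5043 and 4510 of the wildtype sum. The 3 skeletal muscle markers with recovered reads summed to 2422 in the deeper SMARCB1-null library and to 4.01 in the shallower one, with 7.62 to 74.8 elsewhere. In bulk RNA, more cells of a type and more RNA per cell cannot be told apart. Blood cell markers other than TAL1 were low in wildtype. They went from 0 for ITGAM and SPI1 and 0.417 for PTPRC to 11.2 reads per 100 M for KLF1.

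The 250 bases before the gene start show how unlike the promoters of these genes are, and are printed for the 3 genes whose lowest level was in the SMARCA4 null (TLX3, CSRNP3 and ZNF385D), for EVX1, which was highest there, and for HAND1, the gene silent in wildtype. The sequences are from RefSeq on GRCh38.p14, at the 1 start that RefSeq's table gives per gene. Windows were read for 6 of the 7 genes, ST18 not among them. They run 5′ to 3′ along the gene's strand, with each CpG in capitals. They lie at chr5:171308998-171309247 (+) for TLX3, chr2:165572086-165572335 (+) for CSRNP3, chr3:21751211-21751460 (-) for ZNF385D, chr7:27242552-27242801 (+) for EVX1 and chr5:154478228-154478477 (-) for HAND1.
TLX3: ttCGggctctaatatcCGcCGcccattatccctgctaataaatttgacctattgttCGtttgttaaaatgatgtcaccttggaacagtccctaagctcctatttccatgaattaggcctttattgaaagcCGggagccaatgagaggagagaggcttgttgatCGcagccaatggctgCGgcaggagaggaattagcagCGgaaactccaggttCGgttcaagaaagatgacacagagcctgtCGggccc
CSRNP3: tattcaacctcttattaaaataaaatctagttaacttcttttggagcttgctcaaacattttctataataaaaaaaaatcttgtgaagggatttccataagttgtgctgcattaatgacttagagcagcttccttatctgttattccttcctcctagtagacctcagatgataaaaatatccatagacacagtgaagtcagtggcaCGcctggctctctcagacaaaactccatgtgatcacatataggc
ZNF385D: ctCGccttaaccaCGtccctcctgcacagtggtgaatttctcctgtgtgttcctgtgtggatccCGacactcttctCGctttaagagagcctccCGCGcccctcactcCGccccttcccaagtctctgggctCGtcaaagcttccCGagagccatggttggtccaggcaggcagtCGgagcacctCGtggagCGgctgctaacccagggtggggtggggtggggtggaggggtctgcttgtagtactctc
EVX1: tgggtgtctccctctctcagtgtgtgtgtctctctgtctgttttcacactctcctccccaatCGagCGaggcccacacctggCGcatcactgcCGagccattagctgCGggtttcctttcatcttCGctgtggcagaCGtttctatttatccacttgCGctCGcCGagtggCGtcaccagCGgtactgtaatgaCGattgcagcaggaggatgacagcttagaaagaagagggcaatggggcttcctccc
HAND1: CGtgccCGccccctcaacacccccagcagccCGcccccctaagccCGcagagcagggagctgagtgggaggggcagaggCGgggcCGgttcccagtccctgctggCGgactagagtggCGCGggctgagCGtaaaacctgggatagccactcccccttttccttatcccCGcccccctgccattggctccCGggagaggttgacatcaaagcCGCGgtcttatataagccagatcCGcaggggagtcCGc

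CSRNP3 had 1 CpG in its window and a GC content of 36.0%, and 1.73% of the 13328 promoters of measured genes held fewer CpGs. HAND1 had 16 CpGs and 67.2% GC, TLX3 10 and 48.8%, ZNF385D 12 and 61.6%, and EVX1 13 and 55.6%, beside a median of 19 CpGs and 63.6% GC over all these promoters. The 3 genes whose lowest level was in the SMARCA4 null thus ranged from 1 to 12 CpGs. The E box CANNTG, the core that bHLH dimers bind, was found 2 times each in the EVX1 and CSRNP3 windows and not in those of OLIG3, TLX3, HAND1 and ZNF385D, and 56.1% of all windows held it. The homeodomain core TAATTA, searched like the E box on both strands, was in none of these 6 windows and in 2.54% of all. A TATAAA match on either strand was found in OLIG3 alone of the 6, against 6.97% of all windows. The AP-1 motif TGANTCA, also read on both strands, was in none of the 6 and in 4.55% of all.

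**Figure D1:**
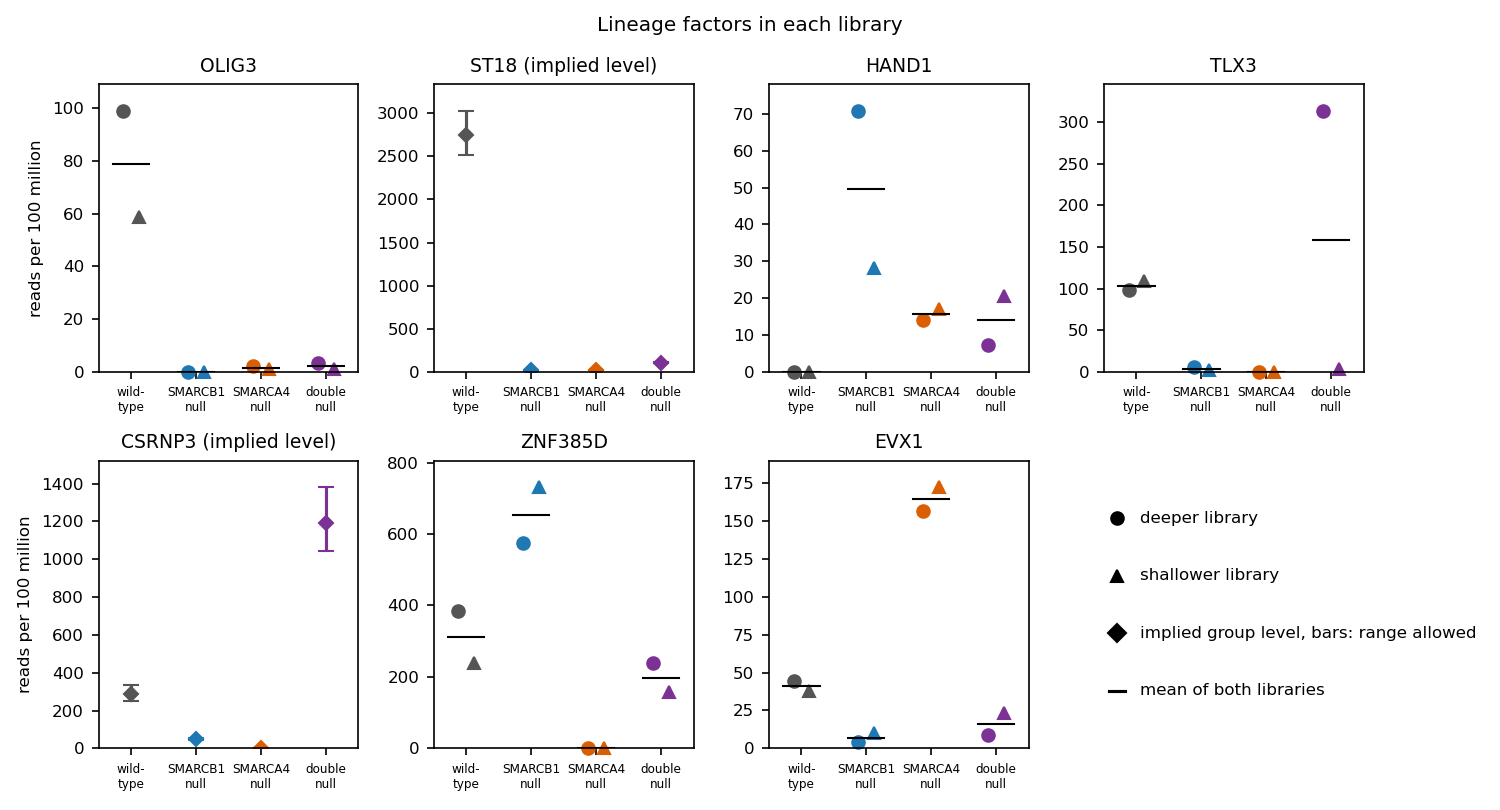
Reads per 100 M of each gene by group, with 1 point per library for the 5 genes with recovered reads, a line at the mean of both, and for ST18 and CSRNP3 the implied group level with the range allowed by the deposited total. OLIG3 and ST18 are high in wildtype, HAND1 is at 0 in wildtype, EVX1 is highest in the SMARCA4 null, and TLX3 differs between the double-null libraries (314 and 3.60).

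OLIG3 and ST18 were present in wildtype and low in all 3 null groups. OLIG3, which marks progenitors of the dorsal neural tube, had 119 and 59 reads in the deeper and shallower wildtype libraries, which are 99.2 and 58.9 reads per 100 M. The SMARCB1-null libraries had 0 and 0 reads, the SMARCA4-null libraries 3 and 1, and the double-null libraries 5.03 and 1. All 6 null libraries lay below both wildtype libraries, and the SMARCA4-null and double-null libraries overlapped. The wildtype mean of 79.0 ± 28.5 (SD, n = 2) was at least 53.4-fold above the SMARCB1 null, taking 3 reads over that group as the limit that 0 reads allow, 49.9-fold above the SMARCA4 null and 37.4-fold above the double null. Such limits cover only the counting error of the group at 0 reads, and the intervals given below cover counting error only.

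ST18, a factor of neuronal and endocrine cells, stood at an implied level of 2750 reads per 100 M in wildtype, with 2516 to 3031 allowed. Its implied level was 15.6 without SMARCB1, 23.2 without SMARCA4 and 106 without both. The double null thus kept 0.0384 of the wildtype level, the highest share of the 3 null groups. How its reads divide between the libraries of a group is not known.

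HAND1 was absent from both wildtype libraries and present in all 6 null libraries. HAND1, a bHLH factor of the heart, of extra-embryonic mesoderm and of trophoblast, had 0 and 0 reads in wildtype. The SMARCB1-null libraries had 73 and 28 reads, the SMARCA4-null libraries 19 and 18, and the double-null libraries 11 and 23. These are means of 49.5 ± 30.2, 15.6 ± 2.21 and 13.99 ± 9.48 reads per 100 M (SD, n = 2), at least 36.3-fold, 11.4-fold and 10.3-fold above wildtype with 3 reads over the wildtype group as the limit. Both SMARCB1-null libraries lay above the other 4 null libraries, while the SMARCA4 null and the double null overlapped. Of the 12 measured trophoblast genes 1 was higher and 2 were lower in the double null, and the 6 with recovered reads summed to 33.3 and 33.9 in wildtype and to 26.1 to 35.8 in every null library except the deeper double-null library, where they reached 152. PAPPA2 alone stood at 135 there. These 6 are a small part of the list. By group level all 12 summed to 8559 in wildtype and to 6820, 8170 and 6494 in the nulls of SMARCB1, SMARCA4 and both.

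TLX3 and CSRNP3 were low in both single nulls and lowest in the SMARCA4 null. TLX3, which favours the glutamatergic over the GABAergic fate in the dorsal spinal cord of the mouse, had 118 and 109 reads in wildtype, a mean of 104 ± 7.41 reads per 100 M (SD, n = 2). It had 6 and 2 reads in the SMARCB1 null and none in either SMARCA4-null library, which puts wildtype at least 83.0-fold above the SMARCA4 null. In the double null the deeper library had 474 reads and the shallower 4. These are 314 and 3.60 reads per 100 M, 1 above both wildtype libraries and 1 below both. The double-null mean of 159 ± 219 therefore rests on 1 library, which held 98.9% of it.

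Several other genes also stood far higher in the deeper than in the shallower double-null library. RANBP17, the nearest measured protein-coding gene before TLX3 on chromosome 5, stood there at 280 reads per 100 M and at 0 in the shallower one, with 0 to 5.82 in the other 6 libraries. SERTAD4, the gene with the pattern nearest to TLX3, stood at 224 and 0.900. MYT1L, a paralogue of ST18 that promotes neuronal identity, stood at 1678 and 0.900. The neuronal markers SLC17A6, a vesicular glutamate transporter, and CHGA, a granule protein, stood at 2359 and 4417 in the deeper and at 0.900 and 12.6 in the shallower library. The part of these neuronal transcripts in the TLX3 value was not tested.

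**Figure D2:**
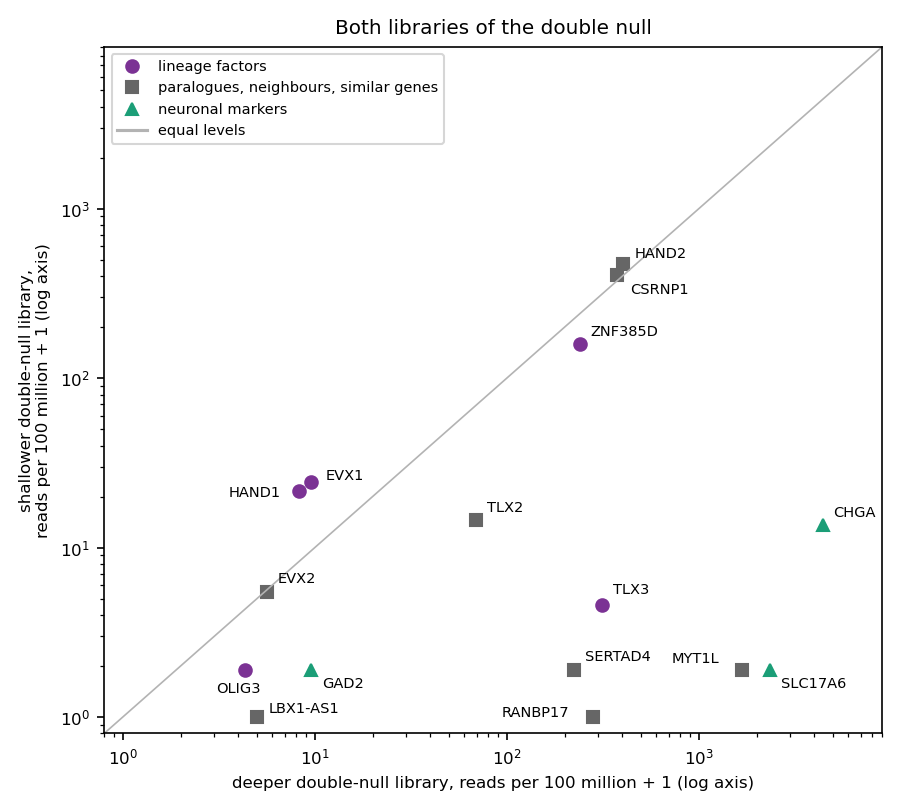
Levels in the deeper (x) and shallower (y) double-null library, in reads per 100 M with 1 added on log axes, for the lineage factors with recovered reads, for named paralogues, neighbours and similar genes, and for the neuronal markers with recovered reads. TLX3, RANBP17, SERTAD4 and MYT1L lie far below the line of equal levels with the neuronal markers, while ZNF385D, HAND2 and CSRNP1 lie near it.

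CSRNP3 stood at an implied 287 reads per 100 M in wildtype (252 to 333 allowed) and at 1190 in the double null (1046 to 1382 allowed). Without SMARCB1 alone it stood at 48.6, and without SMARCA4 alone at 1.33. The order double null, wildtype, SMARCB1 null, SMARCA4 null is that of TLX3, and the 2 patterns lay 1.81 apart on the centred log2 scale, the second closest pair of the 7 genes after OLIG3 and ST18 at 1.57. Whether the double-null reads of CSRNP3 lie in the deeper library, as for TLX3, is not known.

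ZNF385D and EVX1 stood on opposite sides of wildtype in the 2 single nulls. ZNF385D had 460 and 239 reads in the wildtype libraries and 591 and 729 in those of the SMARCB1 null. The SMARCA4-null libraries had 0 and 1 reads, and the double-null libraries 360 and 175. As levels these are means of 311 ± 102, 653 ± 112, 0.476 ± 0.674 and 198 ± 57.2 reads per 100 M (SD, n = 2). The 4 groups did not overlap, but the higher double-null library, at 238.3, lay next to the lower wildtype library at 238.6. In depth-corrected summed reads the double null was 490-fold above the SMARCA4 null, with a 95% counting interval of 87.6 to 19407 that rests on the single read of the SMARCA4 null.

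EVX1, a homeodomain factor of the primitive streak and of spinal interneurons, had 53 and 38 reads in the wildtype libraries and 212 and 181 in those of the SMARCA4 null. The SMARCB1-null libraries had 4 and 10 reads, and the double-null libraries 13 and 26. The means were 165 ± 11.2 reads per 100 M in the SMARCA4 null, 41.0 ± 4.41 in wildtype, 16.0 ± 10.5 in the double null and 6.96 ± 4.35 in the SMARCB1 null (SD, n = 2). The double null and the SMARCB1 null overlapped, and both lay below wildtype, while the SMARCA4 null lay 4.01-fold above it.

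The call counts against wildtype give the size of these differences beside the rest of the table. In the authors' deposited table, of the 7 genes 4 passed an FDR (Benjamini-Hochberg adjusted p) of 0.05 in the SMARCB1 null, with 13.6% of all genes called, and 5 of 7 did in the SMARCA4 null, with 11.9% called. These 2 counts come from the contrasts that chose the genes. HAND1 (higher) and OLIG3 and ST18 (lower) passed in both. EVX1 (lower) passed in the SMARCB1 null alone, and TLX3 and CSRNP3 (lower) in the SMARCA4 null alone. ZNF385D passed in neither (authors' FDR 0.412 and 0.0626). The higher EVX1 level in the SMARCA4 null did not pass (authors' FDR 0.0656). Nor did TLX3 and CSRNP3 in the SMARCB1 null (authors' FDR 0.324 and 0.109). In the double null 3 of 7 passed, with 18% of all genes called. Whether this contrast also weighed in the choice of genes is not known, and it shares its wildtype libraries with the single-null contrasts. Its count is therefore a description too.

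Against wildtype, the double null had less OLIG3 and ST18 and more HAND1, and the other 4 genes did not pass. In the authors' deposited table OLIG3 fell to a ratio of 0.0269 (FDR 0.0198), ST18 fell to 0.0384 (FDR 6.46e-05), and HAND1 rose from 0 reads (FDR 0.00157). EVX1 stood at 0.390 (FDR 0.215), ZNF385D at 0.637 (FDR 0.728), TLX3 at 1.53 (FDR 0.754) and CSRNP3 at 4.15 (FDR 0.445). In edgeR's quasi-likelihood fit to the recovered reads, with Benjamini-Hochberg adjustment over 2522 genes and 25.7% of them called, OLIG3 was lower by a log2 change of -5.09 ± 0.70 (SE, adjusted p = 0.00146) and HAND1 was higher (adjusted p = 0.00768), each in both double-null libraries. EVX1 stood at -1.38 ± 0.48 (adjusted p = 0.0645), ZNF385D at -0.65 ± 0.41 (adjusted p = 0.289) and TLX3 at 0.62 ± 1.87 (adjusted p = 0.846) in that fit. Without the deeper double-null library TLX3 turned to -4.80 (edgeR adjusted p = 0.000212), and without the shallower one it stood at 1.60 (edgeR adjusted p = 0.00444). The OLIG3 call was lost without the deeper or the shallower wildtype library (log2 change -4.69 and -5.44). It was also lost without either SMARCA4-null library (-5.11 in both fits). The HAND1 call was lost whenever any 1 of the 6 wildtype, SMARCB1-null and SMARCA4-null libraries was left out. Its log2 change stayed at 6.98 to 7.04 in those fits, beside 7.00 in the main fit. Leaving a library out also changed the filter, the shared spread and the adjustment, which then ran over 3449 to 3516 genes in place of 2522. A lost call therefore does not show that it rests on the library left out. EVX1 passed under TMM scaling (edgeR adjusted p = 0.0357), under DESeq2 (adjusted p = 0.0139) and without the shallower double-null library (edgeR adjusted p = 0.00425), and ZNF385D passed under DESeq2 (adjusted p = 0.00392).

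The comparison of the double null with each single null asks what loss of the second subunit adds, and the authors' deposited table holds no such comparison. It shares the single-null libraries with the contrasts that chose the genes, so its p-values are not independent of that choice and are given as a description. Against the SMARCA4 null the double null had more ZNF385D and less EVX1, and these were 2 of 5 genes tested, with 13.8% of 2522 genes called. ZNF385D differed by a log2 change of 8.55 ± 0.70 (SE, edgeR adjusted p = 0.00162) and EVX1 by -3.38 ± 0.50 (SE, edgeR adjusted p = 0.00358), each in both double-null libraries. EVX1 in the double null thus lay below wildtype where the SMARCA4 null lay above it. OLIG3 differed by 0.41 ± 0.86 (edgeR adjusted p = 0.787), and HAND1 by -0.18 ± 0.67 (edgeR adjusted p = 0.890). TLX3, at least 127-fold above the SMARCA4 null in its double-null mean, did not pass (edgeR adjusted p = 0.197). It passed without the deeper double-null library (edgeR adjusted p = 0.0329), without the shallower (3.24e-06) and under DESeq2 (0.00117). The EVX1 call was lost whenever any 1 of the 6 libraries outside the double null was left out, with its log2 change at -3.29 to -3.43. The ZNF385D call was lost only without the shallower SMARCA4-null library (log2 change 10.86). As above, the filter, the shared spread and the adjustment changed in these fits too.

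Against the SMARCB1 null, 0 of the 5 genes passed edgeR's adjusted threshold, with 3.37% of 2522 genes called. At an unadjusted p under 0.05 there were 3 (ZNF385D, OLIG3 and HAND1), and DESeq2 called 1 (ZNF385D, adjusted p = 3.1e-10). The share of all genes was not taken for either count. ZNF385D stood at a log2 change of -1.72 ± 0.41 (SE, edgeR adjusted p = 0.0873), HAND1 at -1.84 ± 0.66 (edgeR adjusted p = 0.157) and EVX1 at 1.17 ± 0.55 (edgeR adjusted p = 0.257). OLIG3 had 0 and 0 reads in the SMARCB1 null and 5.03 and 1 in the double null, too few to set a fold (edgeR adjusted p = 0.137). TLX3 stood at 5.30 ± 2.49 (edgeR adjusted p = 0.336) and at -0.13 without the deeper double-null library. Without the shallower double-null library the log2 changes of HAND1, OLIG3, TLX3, ZNF385D and EVX1 were -2.75, 4.99, 6.28, -1.45 and 0.31. Without the deeper one they were -1.25, 3.16, -0.13, -2.05 and 1.74. TMM scaling, which sets each library's depth by the bulk of recovered genes, moved the median log2 change of all genes by -0.30 for the double null against wildtype, by -0.21 against the SMARCB1 null and by -0.19 against the SMARCA4 null. The share of higher genes among calls then went from 80.1% to 59.6%, from 87.1% to 64.9% and from 74.2% to 54.7%, and none of the 5 genes with recovered reads changed its direction under that scaling.

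**Figure D3:**
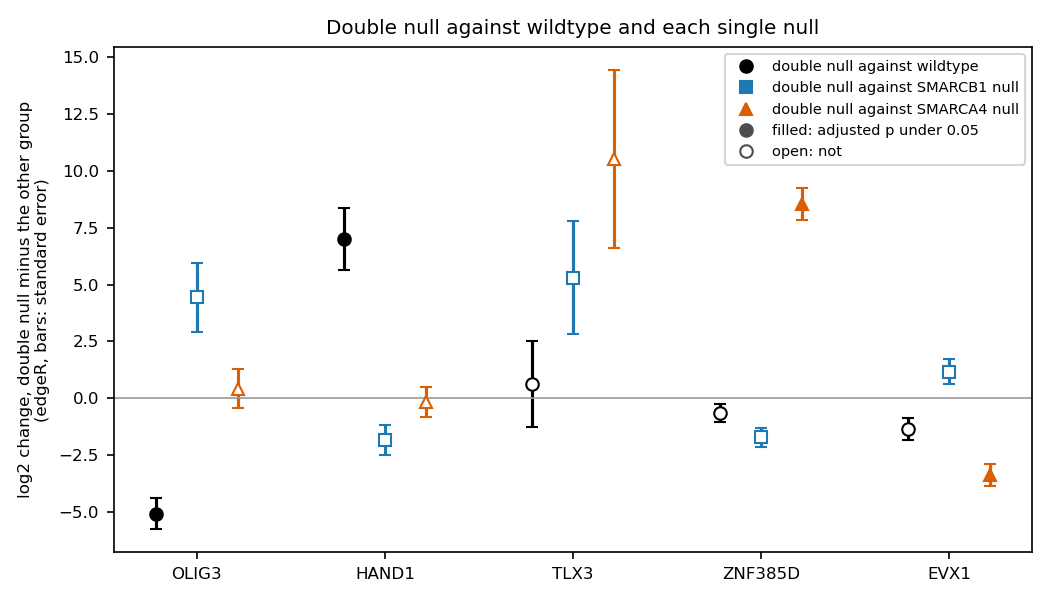
Log2 change (edgeR, with standard error) of the double null against wildtype, the SMARCB1 null and the SMARCA4 null for the 5 genes with recovered reads, filled where the adjusted p is under 0.05. OLIG3 and HAND1 are filled against wildtype and ZNF385D and EVX1 against the SMARCA4 null, none is filled against the SMARCB1 null, and the size of a fitted change against a group at 0 reads depends on the fit's prior.

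Among the paralogues of the lineage factors, OLIG2 fell without SMARCB1 and CSRNP1 rose in all 3 nulls, and 7 of 13 passed in no null. The lists of paralogues and of pathway genes, like the factors, were drawn up with earlier results of these data known. Of the 13, all measured, 1 was higher and 1 lower in the SMARCB1 null, where 7.86% and 5.76% of all genes were called higher and lower. In the SMARCA4 null 2 were higher and 1 lower (7.39% and 4.49% of all genes), and in the double null 3 were higher and 2 lower (12% and 5.97% of all genes). Their median log2 ratio was 0.18, 0.58 and 1.07 in the 3 nulls, beside 0.06, 0.03 and 0.17 over all genes. The shares of all genes given here apply to the counts of the other lists too. OLIG2, which like OLIG3 patterns the neural tube, fell to a ratio of 0.124 in the SMARCB1 null (authors' FDR 2.09e-07) and to 0.150 in the double null (authors' FDR 5.52e-07), and stood at 0.533 in the SMARCA4 null (authors' FDR 0.0809). OLIG1 stood at 0.0705, 0.461 and 0.641 in the nulls of SMARCB1, SMARCA4 and both without passing. HAND2, the partner of HAND1 in heart formation, rose 2.10-fold in the double null (authors' FDR 0.0478), with 215 and 199 reads per 100 M in wildtype and 400 and 470 in the double null. TLX1 fell to 0.196 in the double null (authors' FDR 0.00442) and stood at 1.64 and 1.49 in the single nulls. TLX2 stood at 68.2 and 13.5 reads per 100 M in the deeper and shallower double-null libraries and at 3.99 to 16.5 elsewhere, without passing.

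CSRNP1, unlike CSRNP3, rose in all 3 nulls, by 1.47-fold, 1.93-fold and 1.64-fold in the nulls of SMARCB1, SMARCA4 and both (authors' FDR 7.3e-07, 8.03e-13 and 1.26e-09), with 236 and 239 reads per 100 M in wildtype and 335 to 485 in the null libraries. CSRNP2 stood at 0.953, 1.11 and 1.36 without passing. ZNF385C rose 2.60-fold in the SMARCA4 null (authors' FDR 1.4e-08) and 2.20-fold in the double null (authors' FDR 2.09e-06). ZNF385B fell to a ratio of 0.1002 in the SMARCA4 null (authors' FDR 0.000458) and stood at an implied 1.46 and 8.97 reads per 100 M in the SMARCB1 and double nulls, against 2582 in wildtype, and passed in neither (authors' FDR 0.514 and 0.0851). ZNF385A, MYT1 and EVX2 passed in no null, and EVX2 was close to the limit of detection at 23 reads over all libraries. MYT1L, whose double-null reads lay almost wholly in the deeper library, did not pass there (authors' FDR 0.476).

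**Figure D4:**
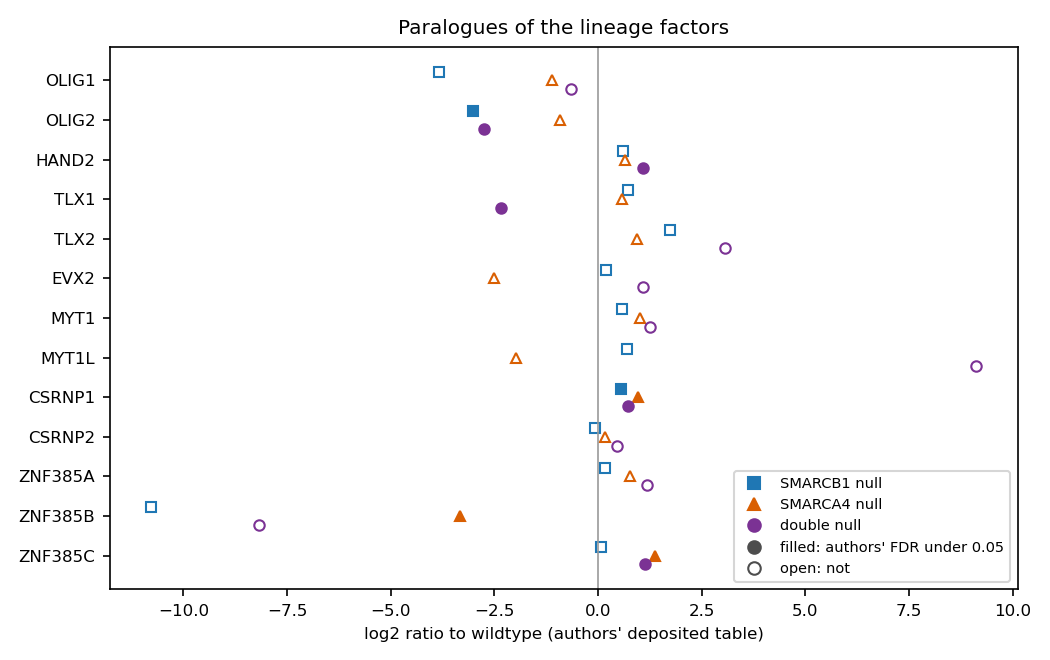
Log2 ratio to wildtype of the 13 paralogues in the nulls of SMARCB1, SMARCA4 and both, from the authors' deposited table, filled at an FDR under 0.05. OLIG2 is filled below 0 in the SMARCB1 and double nulls, CSRNP1 is filled above 0 in all 3, and the large open values of MYT1L and ZNF385B did not pass.

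Partners and other factors of the same lineages gave mixed counts. Of the 7 bHLH partners, 2 were higher and 2 lower in the SMARCB1 null, 2 higher and 1 lower in the SMARCA4 null and 3 higher and 2 lower in the double null. The ID proteins, which hold bHLH factors away from DNA, were the genes that rose: ID1 rose 2.06-fold, 2.92-fold and 2.72-fold and ID3 2.37-fold, 1.66-fold and 3.29-fold in the nulls of SMARCB1, SMARCA4 and both, and ID2 rose 3.24-fold in the double null (authors' FDR from 2.7e-13 to 0.0244). TCF12, a dimer partner of tissue bHLH factors, fell to 0.594, 0.591 and 0.650 of wildtype (authors' FDR from 1.82e-07 to 1.37e-05). Of 28 measured tissue bHLH factors, 2 were higher and 2 lower in the SMARCB1 null, 1 higher and 3 lower in the SMARCA4 null and 5 higher and 3 lower in the double null. TAL1, a blood lineage factor, fell to 0.210 in the SMARCA4 null (authors' FDR 1.76e-07) and to 0.515 in the double null (authors' FDR 0.00426). NEUROD2 rose 9.95-fold in the double null (authors' FDR 0.00145), at 151 and 43.2 reads per 100 M in the deeper and shallower library.

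Of 29 measured factors of the neural tube, 2 were higher and 4 lower in the SMARCB1 null, 0 higher and 2 lower in the SMARCA4 null and 5 higher and 4 lower in the double null. ISL1, a LIM-homeodomain factor of motor neurons and of some dorsal interneurons, rose 5.81-fold in the double null (authors' FDR 0.000182). How its reads divide between the double-null libraries is not known. DBX2 was at 0 reads in both single nulls and at 5.41 reads per 100 M in wildtype. In the double null it stood at 20.5 in the deeper and 0.900 in the shallower library. Of 13 measured primitive streak factors, 2 were higher and 0 lower in the SMARCB1 null, 1 higher and 1 lower in the SMARCA4 null and 3 higher and 0 lower in the double null. FOXA2 stood at an implied 5.27 reads per 100 M in wildtype, rose 37.7-fold in the SMARCB1 null (authors' FDR 0.00055) and 95.2-fold in the double null (authors' FDR 0.000195), and was at 0 in the SMARCA4 null (authors' FDR 9.42e-05). WNT3, a signal of the streak in which EVX1 is active, rose 6.89-fold in the SMARCA4 null (authors' FDR 1.4e-15), the null in which EVX1 was highest, and MESP1 rose 1.498-fold in the SMARCB1 null (authors' FDR 0.000962) and 1.40-fold in the double null (authors' FDR 0.00947). LHX1 rose 1.84-fold in the double null (authors' FDR 0.0222).

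Of 14 measured cardiac mesoderm genes, 0 were higher and 1 lower in each single null, and 2 were higher and 2 lower in the double null. TBX5, a heart factor, fell to 0.371, 0.370 and 0.376 of wildtype in the nulls of SMARCB1, SMARCA4 and both (authors' FDR from 1.2e-05 to 1.49e-05), so HAND1 and TBX5 differed from wildtype in opposite directions in all 3. MEF2C fell to 0.330 in the double null (authors' FDR 0.0244). Of the 12 measured trophoblast genes, TFAP2C fell to 0.414 in the SMARCB1 null (authors' FDR 0.00191) and 0.266 in the double null (authors' FDR 2.31e-05), and GATA2 fell to 0.764, 0.812 and 0.769 of wildtype in the 3 nulls (authors' FDR from 2.49e-08 to 4.8e-05). PSG3 was called higher in all 3 nulls at under 5 reads per 100 M in every library.

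Markers of other cell types were also counted. Of 18 neuronal markers, 1 was higher without SMARCB1, 2 without SMARCA4 and 5 without both, with 0 lower, and the median log2 ratio in the double null was 6.56 beside 0.17 over all genes. NEFL, CHGB, SYN1 and GAD2 were among the 5 (authors' FDR from 0.00244 to 0.0247), and GAD2, with 8.61 reads per 100 M in the deeper double-null library, had 0.900 in the shallower and 0 elsewhere. SYT1 went the other way without passing, from an implied 5043 reads per 100 M in wildtype to 340, 70.7 and 2873 in the nulls of SMARCB1, SMARCA4 and both. Of the 11 skeletal muscle markers 0 passed the authors' FDR of 0.05 in any null, and 1, 0 and 0 had an unadjusted authors' p under 0.05, with median log2 ratios of 6.37, -2.30 and 1.13 in the nulls of SMARCB1, SMARCA4 and both. Of 8 fibroblast markers, 1 was higher without SMARCB1, 0 without SMARCA4 and 2 without both. These were LUM, called in the SMARCB1 and double nulls, and THY1 (6.54-fold in the double null, authors' FDR 0.00134). LUM was at 0 in wildtype, at 19.4 and 3.01 reads per 100 M in the SMARCB1 null and at 26.5 and 15.3 in the double null. The median log2 ratios of the 8 were 4.81, 0.40 and 3.31 in the nulls of SMARCB1, SMARCA4 and both, beside 0.06, 0.03 and 0.17 over all genes. Of 8 measured blood markers, CD33 rose 6.74-fold, 3.56-fold and 13.3-fold in the nulls of SMARCB1, SMARCA4 and both (authors' FDR from 3.87e-05 to 0.00737), and TAL1 fell in the SMARCA4 and double nulls as given above.

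HOXA13, the neighbour of EVX1, differed from wildtype in the same direction as EVX1 in each null. Of the 14 nearest measured protein-coding genes on either side, ordered by RefSeq on GRCh38.p14, 3 were called in each single null and 4 in the double null. Over all genes 13.6%, 11.9% and 18% were called in the nulls of SMARCB1, SMARCA4 and both. HOXA13, beside EVX1 on chromosome 7, fell by 1.18 on the log2 scale in the SMARCB1 null (authors' FDR 4.6e-05), rose by 0.59 in the SMARCA4 null (authors' FDR 0.0105) and fell by 1.45 in the double null (authors' FDR 1.17e-06). EVX1 had log2 ratios of -2.56, 2.00 and -1.36, the same directions, but passed only in the SMARCB1 null (authors' FDR 0.0191, 0.0656 and 0.215). SCN2A, a neuronal sodium channel gene beside CSRNP3 on chromosome 2, rose by 4.82, 5.00 and 9.34 on the log2 scale in the nulls of SMARCB1, SMARCA4 and both (authors' FDR from 1.22e-49 to 5.32e-14), while CSRNP3 stood below wildtype in both single nulls. TNFAIP3, beside OLIG3 on chromosome 6, rose by 0.98, 0.84 and 1.60 (authors' FDR from 1.52e-36 to 1.42e-10), while OLIG3 was low. NPM1, beside TLX3, fell by 0.18 on the log2 scale in the double null (authors' FDR 0.00717). The neighbours of HAND1 (SAP30L and LARP1), ST18 (PCMTD1 and FAM150A) and ZNF385D (SGOL1 and UBE2E2) passed in no null.

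For each lineage factor the 2 genes nearest in pattern were found by the distance between log2(level + 1) values centred over the 4 groups, among genes with at least 50 reads in total. These are descriptions over 4 group levels that share the same 8 libraries. EVX1 had the nearest matches of the 7, SVOPL at a distance of 0.24 and SPRY3 at 0.29. SPRY3 stood at implied levels of 595, 137, 2203 and 241 reads per 100 M in wildtype and the nulls of SMARCB1, SMARCA4 and both. OLIG3 was nearest to ANKRD30A (0.37) and LBX1-AS1 (0.73), an antisense RNA whose reads may include those of its partner, since strand use in the counting is not stated. ANKRD30A stood at 78.3 and 80.9 reads per 100 M in wildtype and at 0 to 4.50 in the 6 null libraries. ANKRD30A was also the second nearest gene to ST18 (1.26), after BHLHE22 (1.19), a neuronal bHLH factor that stood at 705 in wildtype and at 5.59, 2.35 and 38.1 in the nulls of SMARCB1, SMARCA4 and both.

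HAND1 was nearest to CLSTN2 (0.42) and ABCG2 (0.95), a drug efflux transporter that stood at 23.3 reads per 100 M in wildtype and at 486, 245 and 243 in the nulls of SMARCB1, SMARCA4 and both. TLX3 was nearest to SERTAD4 (0.89) and PTPRN2 (0.95), a protein of dense core vesicles. CSRNP3 was nearest to LPHN3 (0.45) and CNTNAP2 (1.01), both neuronal membrane proteins, and LPHN3 stood at 407, 57.5, 1.24 and 1185 reads per 100 M in wildtype and the nulls of SMARCB1, SMARCA4 and both. ZNF385D had the most distant matches, EPHA6 (1.75) and BAI3 (1.87), which stood at 0.860 and 4.83 reads per 100 M in the SMARCA4 null. EPHA6 stood at 268 in wildtype, 192 in the SMARCB1 null and 67.9 in the double null. BAI3 stood at 633, 820 and 1382, and so lay above wildtype in the double null, where ZNF385D lay below it.

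**Figure D5:**
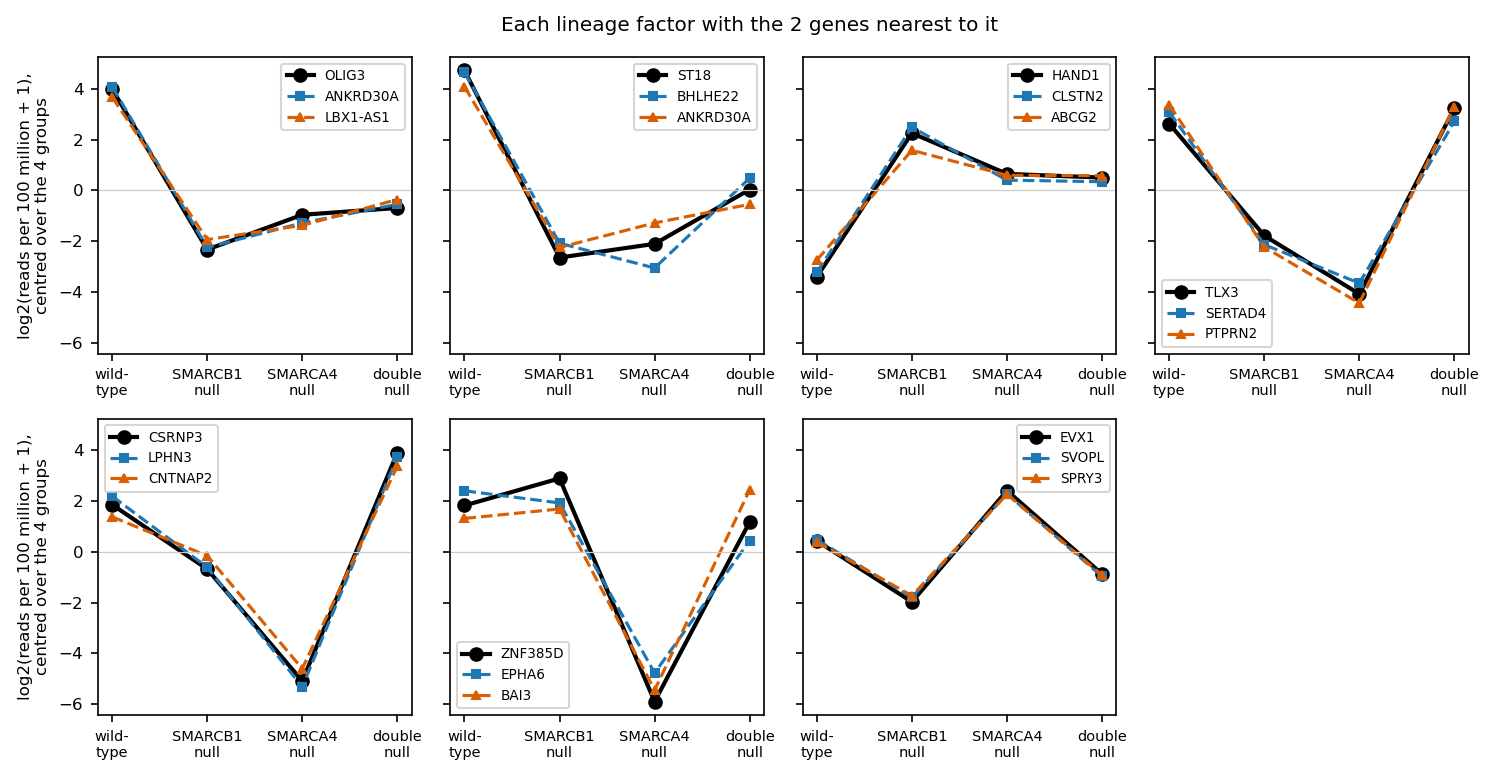
Log2(reads per 100 M + 1), centred over the 4 groups, for each lineage factor (black) and the 2 genes nearest to it in pattern. The lines nearly coincide for EVX1 with SVOPL and SPRY3, while ZNF385D is set apart from EPHA6 and BAI3 in the SMARCB1 and double nulls.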

How the data were processed

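RNA from 8 HAP1 samples was made into stranded mRNA libraries, per the labels' protocols. STAR, Partek 4.0 and the build hg19 are named in the submitters' processing notes; the sources used here do not give the test or the normalization. Per the file headers, the deposited table gives for each gene the total reads (an estimated count, summed over all samples), and for each null group against wildtype the authors' p-value, their adjusted p-value (FDR), a ratio and a signed fold, a score in sign.

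Reads per library were recovered from the total and the 3 ratios. Each deposited ratio was taken as 1 group's mean of library-scaled reads over the other's, with 0.0001 RPM added to both. That form was inferred from the values and is not stated by the authors. The recovery gave library totals of 99.7 to 151 M reads and solved 4739 of 7113 genes tried, with 0 of 500 and 0 of 200 decoys solved. For other genes a group level was implied from the same values, with a median error of 0.651% to 1.24% and a 95th percentile of 4.12% to 15% on recovered genes.

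All 8 libraries of recovered reads, rounded to whole numbers, entered 1 robust quasi-likelihood fit of edgeR 4.0.16 (R 4.3.3) with the recovered totals as depth. Genes were kept by filterByExpr and p-values adjusted by Benjamini-Hochberg, with calls at 0.05; genes with recovered reads are mostly low and do not stand for all genes. Alternatives were TMM, DESeq2 1.42.0, no filter, other thresholds and each library left out. The fit was tested on simulated data. Named genes were all 7 lineage factors and their paralogues, up to 4 called genes per list by size of log2 ratio, and the 2 nearest genes per factor. Neighbouring genes were added after the data were seen. The 7 factors and all lists were chosen with earlier results of these data known. The values of 1 listed gene are not reported here, though the counts over its lists include it.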

Additional observations from a re-analysis of the deposited data

Results flagged for a closer look

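Both libraries of 1 null lay above both wildtype libraries and both of another null below them for 2 genes. For EVX1 the log2 ratio to wildtype was 4.56 higher in the SMARCA4 null than in the SMARCB1 null, and 3.36 higher than in the double null, where 2 of 2 libraries lay lower. For ZNF385D it was 10.39 higher in the SMARCB1 null than in the SMARCA4 null and 1.72 higher than in the double null, where 2 of 2 libraries lay lower. These differences were not tested independently, since the single-null values in each of them chose the genes. The double-null libraries of ZNF385D lay below wildtype by the small margin of 238.3 against 238.6 reads per 100 M. Within a group of 2 samples, a gap between them does not show which of them is unusual. Set against all other libraries, the deeper double-null library stood apart, as given above.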

How the results depend on the processing

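No paired analysis was possible because the 2 libraries of a group could not be tied to the replicate letters in the labels. The shorter deposited table holds none of the 7 genes.

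At a stricter FDR of 0.01, the authors' values called 2 of 7 genes in the SMARCB1 null and 2 in the SMARCA4 null; an FDR of 0.1, adjustment over genes with at least 50 reads and a 2-fold minimum gave counts within 1.5 times the main ones. DESeq2 called 5 of the 5 genes with recovered reads in the SMARCA4 null, 4 in the double null and 1 for the double null against the SMARCB1 null. With each library left out in turn, edgeR's counts went from 0 to 5 in each single null, from 0 to 4 in the double null, from 0 to 4 for the double null against the SMARCB1 null and from 0 to 3 against the SMARCA4 null. In these fits the lone sample of a group is assumed to vary like the other groups. The filter, the shared spread and the adjustment also change, over 2770 to 3516 genes in place of 2522. Directions turned only for small or split values: TLX3 without the deeper double-null library, to a log2 change of -4.80 against wildtype (1.60 without the shallower one) and -0.13 against the SMARCB1 null (6.28 without the shallower one); HAND1 in the double null against the SMARCA4 null without the same library, to 0.41 (-1.08 without the shallower one); and OLIG3 in that comparison, to -0.02 without the shallower SMARCA4-null library and -0.80 without the deeper double-null library (up to 1.11 in the other fits). Of 290 tested values of single genes under these alternatives, 5 turned as given, 198 kept direction and side of the threshold, 34 passed it and 53 no longer did; 42 untested ratios of levels with 1 or 5 reads per 100 M added kept direction. Counting limits the levels of OLIG3 in all 3 nulls, of TLX3 in the single nulls and the shallower double-null library, and of ZNF385D in the SMARCA4 null, where no library held over 6 reads.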
